A study of Mus musculus with 36 samples.

Results

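Egr1, Egr2 and Egr3, Ier2, Ier3 and Ier5, Nr4a1 and Nr4a2, and Srf were followed in mouse liver during acetaminophen injury. The 9 genes were taken by symbol, through every probe set annotated to exactly 1 of them, 19 probe sets in all, and 1 main probe set stood for each gene. They are 9 of the 18193 genes that the arrays measured with a probe set of 1 symbol, and all 9 were among the 13981 genes tested. Egr2 entered the tested genes through the dosed mice, since its signal exceeded the level the filter used, 30.8, in 1 of 12 arrays at 0 h, against 8 of 12 at 3 h and 12 of 12 at 6 h.

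Liver RNA of 36 mice had been hybridised to Affymetrix arrays, 1 mouse to an array. The inbred strains are labelled SJL, SMJ, DBA and C57, and the design text spells the last 3 SmJ, DBA/2 and C57B6. The series calls SJL resistant to the drug's liver injury and the other 3 sensitive. All mice were fasted overnight. The 0 h mice had received no dose, and the 3 h and 6 h mice had received 300 mg/kg acetaminophen in 1 injection into the abdomen, with 3 mice for each strain and time. Age and sex are not given in the sources used here. Mice given vehicle alone were not analysed here, so hours of fasting and time of day cannot be told apart from time after the drug. Mice carry their strain and number, as SMJ56.

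Immediate early genes are transcribed within minutes of a stimulus from factors that a cell already holds. A common route runs from a growth factor receptor through the ERK kinase cascade to the ELK proteins, which sit with serum response factor, the product of Srf, on a DNA element called the CArG box. MRTF proteins are the other partners of serum response factor and respond to the state of actin. The Egr genes encode zinc finger transcription factors, and Egr1 is a classic gene of this route in liver after tissue loss or toxic injury. Nr4a1 and Nr4a2 encode orphan nuclear receptors that in hepatocytes respond to cyclic AMP through the factor CREB and act on genes of glucose production. The Ier genes are named for their quick induction. Ier2 encodes a nuclear protein linked to transcription, and Ier3 a protein that tunes cell survival and ERK signalling. Ier5 encodes a partner of the heat shock factor HSF1.

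The promoters of 4 of these genes are printed because they hold letters that match motifs of the 2 routes, serum response factor and CREB. They are the 250 bases before the listed transcription start, from RefSeq on GRCm38.p6, written 5′ to 3′ on the gene's strand. Capitals mark CArG boxes (CC and GG around 6 bases of A or T) in Srf and Egr2, and the core of the CREB site, TGACG on either strand, in Egr2, Nr4a1 and Nr4a2. Windows were listed there for 6 of the 9 genes (Egr2, Ier3, Ier5, Nr4a1, Nr4a2 and Srf).
Srf, chr17:46556163-46556412, minus strand: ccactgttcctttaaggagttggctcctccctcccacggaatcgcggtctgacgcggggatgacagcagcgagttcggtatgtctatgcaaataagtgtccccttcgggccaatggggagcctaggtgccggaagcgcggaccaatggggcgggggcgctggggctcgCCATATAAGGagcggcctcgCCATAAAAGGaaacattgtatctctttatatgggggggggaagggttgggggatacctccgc
Egr2, chr10:67537619-67537868, plus strand: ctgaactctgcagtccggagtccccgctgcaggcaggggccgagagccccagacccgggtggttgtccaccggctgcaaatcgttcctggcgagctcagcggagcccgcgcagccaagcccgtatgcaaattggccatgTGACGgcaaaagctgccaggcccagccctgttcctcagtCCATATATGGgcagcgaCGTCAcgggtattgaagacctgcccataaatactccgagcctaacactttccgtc
Nr4a1, chr15:101266596-101266845, plus strand: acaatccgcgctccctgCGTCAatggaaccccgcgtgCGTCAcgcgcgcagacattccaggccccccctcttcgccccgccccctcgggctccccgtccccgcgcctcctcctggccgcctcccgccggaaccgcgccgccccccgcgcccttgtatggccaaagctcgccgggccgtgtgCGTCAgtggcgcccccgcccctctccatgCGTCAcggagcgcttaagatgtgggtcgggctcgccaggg
Nr4a2, chr2:57124004-57124253, minus strand: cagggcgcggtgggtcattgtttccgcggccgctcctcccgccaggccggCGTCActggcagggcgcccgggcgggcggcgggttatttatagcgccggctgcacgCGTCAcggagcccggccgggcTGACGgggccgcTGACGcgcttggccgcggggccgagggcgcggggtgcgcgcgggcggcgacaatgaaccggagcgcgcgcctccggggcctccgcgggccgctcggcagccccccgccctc

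The Srf window held 2 CArG boxes, CCATATAAGG and CCATAAAAGG, which began 82 and 62 bases before the start. The printed Egr2 window, the third of 5 listed, held 1, CCATATATGG, at 72 bases, and the windows listed after it hold the same box. The second window, which was not printed, held another, CCTTTTTTGG, 72 bases before its own start. Of 32851 promoter windows of this length, 1.47% held a CArG box. Nr4a1 and Nr4a2 each held 4 copies of TGACG on 1 strand or the other, and the printed Egr2 window held 2. That shorter motif was in 17.8% of windows, and Srf held 1 copy that is not capitalised. The full palindrome TGACGTCA, in 1.55% of windows, was in none of the 6 genes' windows. The Egr-type motif GCGGGGGCG, in 2.57% of windows, was once in Srf and once in Nr4a1, also without capitals. Neither the CArG box nor TGACG was in the windows of Ier3 and Ier5.

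Levels are MAS5 signals, a linear scale with no unit that is comparable between mice for 1 probe set and not between genes. Changes are differences of log2(signal + 2.77) with the standard error (SE) of limma's fit over all 36 arrays, and adjusted p is limma's, with the Benjamini-Hochberg adjustment over 13981 genes and a threshold of 0.05. Pairs of arrays from 1 group correlated at 0.914 to 0.963 across genes. The summed signal of 7 hepatocyte markers was 70680 to 117950 at 0 h, 77013 to 120120 at 3 h and 77619 to 145000 at 6 h. Among them Alb read 10884 to 28847, while Ass1, the lowest by mean, read 32.1 to 439.6. The summed signal of 6 lymphocyte markers stayed between 86.4 and 245.5. Summed neutrophil markers ranged over 123 to 886 at 0 h, 170 to 2357 at 3 h and 460 to 2553 at 6 h, and platelet markers over 114.04 to 277, 153 to 284 and 294 to 742. As the mean of the 4 strains, 12.5% of all genes were higher at 6 h than at 0 h and 20.1% were lower. In that comparison 5 of 7 tested neutrophil markers and 2 of 3 platelet markers were higher. So were 3 of 9 Kupffer cell and macrophage, 4 of 7 endothelial and 5 of 7 hepatocyte markers. Lower were 1 hepatocyte and 2 of 7 stellate markers, and 1 stellate marker was higher, which lies near the shares of all genes. None of 4 tested lymphocyte markers passed. The signal ratio of the 3′ to the 5′ end of the actin control was 1.51 to 1.87 at 0 h, 1.36 to 1.70 at 3 h and 1.28 to 1.76 at 6 h. The part of these shifts in the changes below was not tested, and in whole liver fewer cells of a type and less RNA per cell cannot be told apart.

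As the mean of the 4 strains, 7 of the 9 genes rose by 3 h: Egr1, Egr2, Ier2, Ier3, Ier5, Nr4a1 and Srf. Of all genes tested 3.1% rose in that comparison. The same 7 rose at 6 h, when 12.5% of all genes did. None of the 9 fell at either time, while 3.96% of all genes fell at 3 h and 20.1% at 6 h. At 6 h Egr1 was 24.7-fold higher, Ier2 13.1-fold, Ier3 10.4-fold, Nr4a1 6.02-fold, Egr2 4.65-fold, Ier5 3.96-fold and Srf 1.39-fold, on the scale of log2(signal + 2.77), which understates the change of low signals. The largest adjusted p among these 7 was 0.000109 at 6 h, for Srf.

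At 3 h Nr4a1 had already changed by 2.66 ± 0.25 (adjusted p = 2.57e-08), beside 2.59 ± 0.25 at 6 h. Ier2 changed by 2.50 ± 0.28 at 3 h and 3.71 ± 0.28 at 6 h (adjusted p = 6.26e-07 and 9.48e-11), and Ier3 by 2.19 ± 0.19 and 3.38 ± 0.19 (adjusted p = 9.63e-09 and 6.14e-13). Egr2 changed by 1.16 ± 0.29 and 2.22 ± 0.29, Ier5 by 0.81 ± 0.15 and 1.98 ± 0.15, and Srf by 0.35 ± 0.09 and 0.47 ± 0.09. These 3 genes had the highest adjusted p of the 7 at 3 h (0.0115, 0.0011 and 0.012). Egr3 and Nr4a2 did not pass with their main probe sets, at 0.21 ± 0.32 and -0.30 ± 0.24 at 6 h (adjusted p = 0.678 and 0.373). The median change of the 9 was 1.16 at 3 h and 2.22 at 6 h, beside medians of -0.03 and -0.05 over all genes tested. Ordered by log2 change among the 13981 genes, Egr1 stood at place 4 at 3 h and place 5 at 6 h, Nr4a1 at places 13 and 42, Ier2 at 17 and 14, and Ier3 at 23 and 19.

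The rise continued between 3 h and 6 h for 4 of the 9, against 6.92% of all genes. Ier2 rose by 1.22 ± 0.28, Ier3 by 1.19 ± 0.19, Ier5 by 1.18 ± 0.15 and Egr2 by 1.06 ± 0.29 (adjusted p = 0.00329, 0.000102, 7.49e-06 and 0.0113). Egr1 changed by 0.91 ± 0.38 and did not pass (adjusted p = 0.104). Nr4a1 was level as a mean of strains, at -0.07 ± 0.25 (adjusted p = 0.894). Within strains fewer genes passed at this step. In SJL Ier2 and Ier5 rose by 2.15 and 1.48, against 1.42% of all genes, and in SMJ Ier3, Ier5 and Srf by 2.16, 1.34 and 0.66, against 4.72%. For DBA the gene was Ier5 at 1.19 (1.29%), and for C57 Nr4a1 and Ier3 at 1.89 and 2.42 (1.92%). The SJL count was 0 without SJL39 or SJL45, 1 without SJL40, SJL44 or SJL48 and 4 without SJL42, and the DBA count was 0 without DBA158, DBA160, DBA166 or DBA168. The SMJ count was 2 without SMJ98, where the Srf call ended (adjusted p = 0.0636), as it also did with the mean of its probe sets (0.334) and on the compared arrays alone (0.0889). The C57 count was 1 without any 1 of C57226, C57230, C57231, C57233 and C57236. The call of Egr2 as a mean of strains ended when the mean of its probe sets was used (adjusted p = 0.0668).

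**Figure D1:**
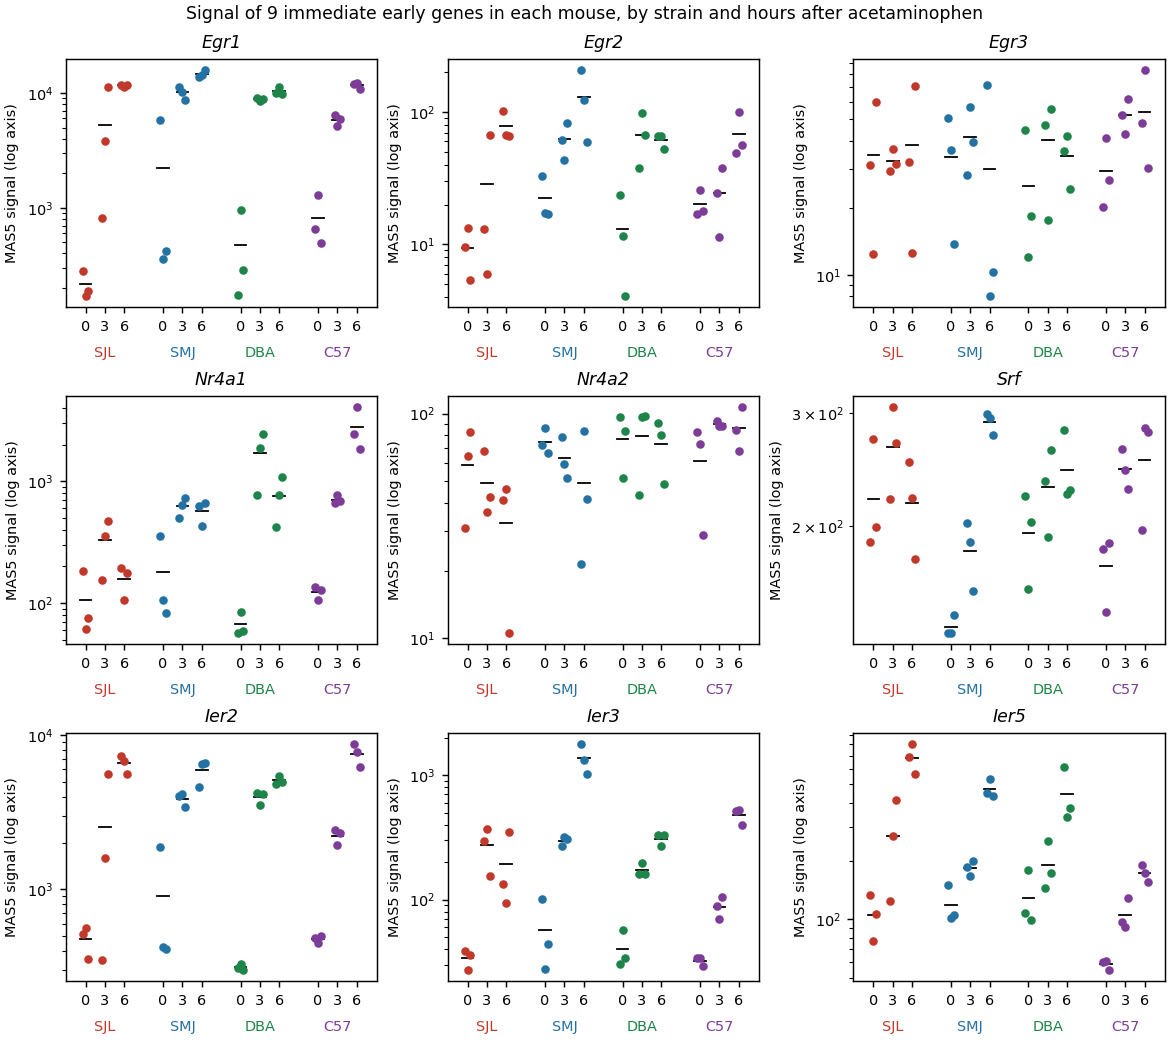
MAS5 signal of each of the 9 genes in each of 36 mice, on log axes, against hours after acetaminophen within each strain; points are mice and bars are means of 3. Egr1, Egr2, Ier2, Ier3 and Ier5 were above all 0 h mice of their strain at 6 h in every strain, while Egr3 and Nr4a2 overlapped.

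Within strains the number of called genes at 3 h was uneven. The F test of a strain difference in this change was passed by none of the 9, against 1.97% of all genes. In DBA 5 of the 9 genes rose (Egr1, Egr2, Ier2, Ier3 and Nr4a1), against 1.09% of all genes. In SJL 4 rose (Egr1, Ier3, Ier5 and Nr4a1), against 4.48%. Only Ier3 passed among SMJ mice (0.165% of all genes) and only Nr4a1 among C57 mice (0.2%). At an unadjusted p under 0.05, limma's fit had 5 genes in SJL, 6 in C57, 5 in DBA and 7 in SMJ. The share of all genes at that unadjusted level is not given here. By 6 h the counts at the adjusted threshold were 5 in SJL, 6 in C57, 6 in DBA and 7 in SMJ. In these strains 3.71%, 4.24%, 4.81% and 8.58% of all genes rose. Fitted on the arrays of each comparison alone, the 6 h counts were 4 in SJL, 5 in C57, 4 in DBA and 5 in SMJ. The shares of all genes in those fits are not given here. Lost there were Ier3 in SJL (adjusted p = 0.0897), Egr2 and Ier5 in DBA (0.0699 and 0.0516), Egr1 and Nr4a1 in SMJ (0.0835 and 0.0926) and Srf in C57 (0.222).

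Taken mouse by mouse, 2 of the 9 genes, Egr1 and Ier3, lacked any overlap between 3 h and 0 h in each strain, which held for 0.401% of all genes. At 6 h it held for 5, Egr1, Egr2, Ier2, Ier3 and Ier5, and for 1.83% of all genes. The strain counts at 3 h moved with single arrays. Without SMJ56, a 0 h mouse described next, 4 genes rose in SMJ: Egr1 at 4.69, Ier2 at 3.21, Ier3 at 2.99 and Nr4a1 at 2.67. Arrays of other strains enter through the shared spread. The SMJ count was 3 without SJL39 or SJL42 and 2 without DBA114, and the C57 count was 3 without SJL39 or SMJ56, 2 without SJL42, and 0 without any 1 of the 6 C57 arrays at 0 h and 3 h. The SJL count was 2 without SJL2 or SJL42.

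**Figure D2:**
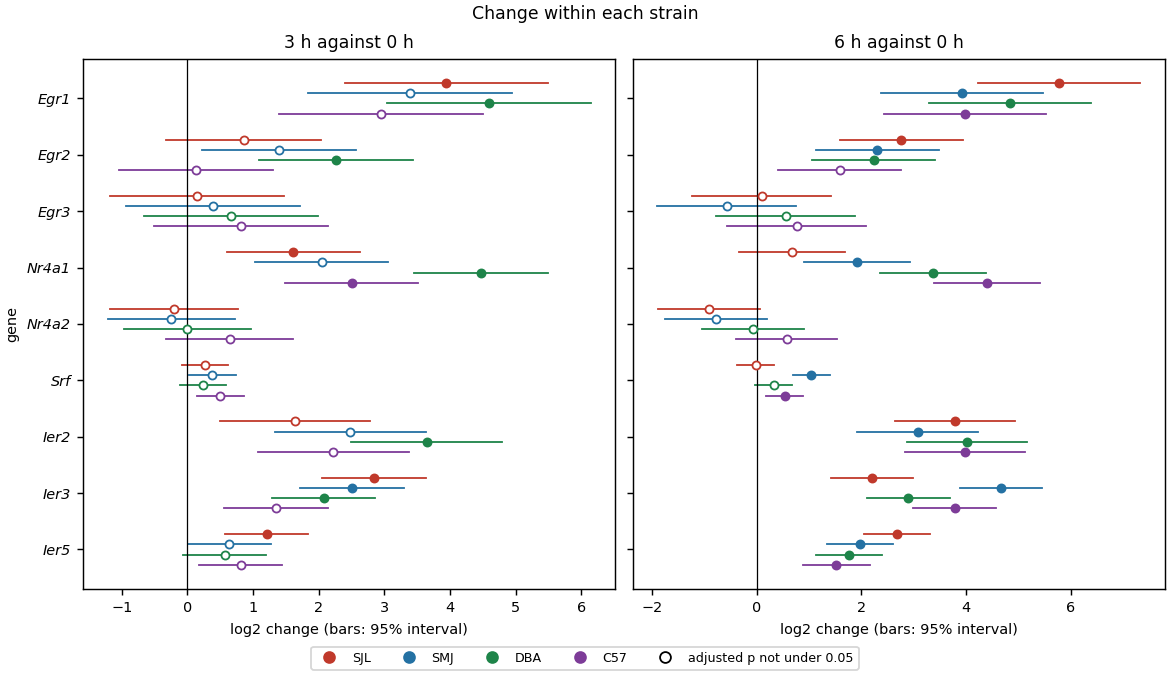
Change at 3 h (left) and 6 h (right) against 0 h of each gene in SJL, SMJ, DBA and C57, in log2 units with the 95% interval of limma's fit; open points did not pass the threshold. At 6 h, Egr1, Ier2, Ier3 and Ier5 passed in every strain in the fit over all 36 arrays, and the changes of Nr4a1 ran from 0.68 in SJL to 4.39 in C57.

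Egr1, the leading Egr gene of liver injury, reached 9843 to 15734 in the 12 mice at 6 h, against 171 to 5824 in the 12 undosed mice. In SJL its signal was 284, 171 and 189.9 at 0 h, 810.2, 3829 and 11263 at 3 h, and 11795, 11357 and 11768 at 6 h. In C57 it was 654, 1289.8 and 489 at 0 h, 6393, 5128 and 5914 at 3 h, and 12013, 12329 and 10932 at 6 h. In every strain the 3 h and 6 h mice lay above the 0 h mice. The 3 SJL mice at 3 h spanned the whole distance, since SJL39 was the nearest to the 0 h mice and SJL42 at the level of 6 h.

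In SMJ the Egr1 signal was 5824, 358 and 422 at 0 h, 11364, 10292 and 8761 at 3 h, and 13847, 14231 and 15734 at 6 h. In DBA it was 173, 950.3 and 285 at 0 h, 9038, 8495 and 8842 at 3 h, and 10057, 11323 and 9843 at 6 h. The 0 h mouse SMJ56 stood apart from SMJ57 and SMJ58, with 5824 against 358 and 422. It was also the highest of the 12 undosed mice for Ier2 (1896), Ier3 (100.8), Nr4a1 (354) and Egr2 (32.7). The 6 h change of Egr1 was 3.92 ± 0.75 in SMJ with that mouse and 5.22 without it, beside 5.78 ± 0.75 in SJL, 4.83 ± 0.75 in DBA and 3.97 ± 0.75 in C57. The F test for any difference between strains was not passed by Egr1 at 6 h (adjusted p = 0.538).

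Egr2, the second zinc finger factor, read 4.07 to 32.7 in the 12 mice at 0 h, 5.97 to 98.02 at 3 h and 49.2 to 207 at 6 h. No 6 h mouse overlapped the 0 h mice of its strain. Egr2 rose at 6 h in SJL by 2.76 ± 0.57, in SMJ by 2.30 ± 0.57 and in DBA by 2.23 ± 0.57. In C57 its change was 1.59 ± 0.57 and did not pass (adjusted p = 0.0781), although C57 mice read 49.2, 100.4 and 56.6 at 6 h and 17.1, 25.9 and 17.9 at 0 h. The DBA call at 3 h, 2.26 ± 0.57 (adjusted p = 0.0372), ended without DBA114, DBA115, DBA159 or DBA160 (adjusted p up to 0.285) and with no filter on low values (0.0501), and the 6 h call in DBA ended without DBA115 (adjusted p = 0.0861).

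A second Egr2 probe set changed by 2.89 ± 0.34 at 6 h as the mean of strains (adjusted p = 5.82e-07 over all probe sets), and by 2.72 in C57, where it passed (adjusted p = 0.019). Egr3, the third Egr gene, read 12.0 to 60.0 at 0 h, 17.7 to 61.5 at 3 h and 8.03 to 83.1 at 6 h, and the times overlapped within strains, except that the 3 C57 mice at 3 h were above those at 0 h. Its second probe set, at most 35.95 in any mouse, was higher at 6 h by 1.24 ± 0.38 (adjusted p = 0.023 over all probe sets), though it exceeded the filter level on 1 array. With the mean of both probe sets Egr3 passed at 6 h (0.72, adjusted p = 0.0285). The 95% interval of the main Egr3 probe set at 6 h was -0.45 to 0.87. Egr4, the fourth member of the family, changed by 0.41 ± 0.29 and did not pass (adjusted p = 0.313).

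Ier2, the nuclear regulator, rose in all 4 strains by 6 h. Its 12 undosed mice read 299.8 to 1896, and its 6 h mice 4591 to 8702, with no overlap in any strain. The 6 h change was 3.79 ± 0.56 in SJL, 3.97 ± 0.56 in C57, 4.02 ± 0.56 in DBA and 3.07 ± 0.56 in SMJ. The 3 h mice showed more spread between strains. They read 346, 1597 and 5636 in SJL, 2414, 1929 and 2335 in C57, 4202, 3536 and 4139 in DBA and 4044, 4174 and 3433 in SMJ. The difference between strains at 3 h did not pass (adjusted p = 0.474). It did pass without SJL42 (adjusted p = 0.0336), the SJL mouse with 5636.

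Ier3, the survival and ERK signalling gene, rose in every strain by 6 h and differed between strains. In SMJ its signal was 100.8, 27.6 and 43.9 at 0 h, 269, 316 and 308 at 3 h, and 1761, 1325 and 1015 at 6 h. In C57 it was 33.7, 34.0 and 29.0 at 0 h, 88.4, 70.2 and 104 at 3 h, and 516, 525 and 399.6 at 6 h. In both strains every mouse of a later time lay above every mouse of an earlier one.

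In SJL the Ier3 signal was 38.6, 27.2 and 35.9 at 0 h, 297, 370.5 and 155 at 3 h, and 134, 93.1 and 350.0 at 6 h. In DBA it was 30.3, 57.02 and 33.7 at 0 h, 162, 196 and 161 at 3 h, and 330.5, 267 and 327 at 6 h. As in SMJ and C57, every DBA mouse of a later time lay above every DBA mouse of an earlier one. The SJL mice at 6 h and 3 h overlapped, with 2 of the 3 mice at 6 h below every SJL mouse at 3 h. From 3 h to 6 h Ier3 changed by -0.64 ± 0.38 in SJL, 2.42 ± 0.38 in C57, 0.82 ± 0.38 in DBA and 2.16 ± 0.38 in SMJ. The strains differed in this step (F test, adjusted p = 0.00234, passed by 5.64% of all genes), and the SJL change minus the mean change of the other 3 was -2.44 ± 0.44 (adjusted p = 0.00186), where 1.15% of all genes were lower. Both calls held when any 1 array was left out. For 6 h against 0 h the changes were 2.20 in SJL, 3.78 in C57, 2.90 in DBA and 4.66 in SMJ (F test, adjusted p = 0.0242, passed by 5.25% of all genes). That F test was lost without SJL1, SJL45, SMJ57, SMJ58 or SMJ101 (adjusted p up to 0.0644) and on the compared arrays alone (0.06).

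Ier5, the heat shock factor partner, rose at 6 h in all 4 strains, by 2.68 ± 0.31 in SJL, 1.52 ± 0.31 in C57, 1.76 ± 0.31 in DBA and 1.98 ± 0.31 in SMJ. Over the 12 mice of each time it read 54.7 to 180.1 at 0 h, 91.6 to 415 at 3 h and 156 to 799.6 at 6 h. Its mean signals at 6 h were 683 ± 119, 174 ± 16.9, 442 ± 150.3 and 472 ± 51.7 in the same strains (SD, n = 3 each). C57 was the lowest at every time. Before the dose its C57 mean was 58.5 ± 3.36, beside 105 ± 28.3 in SJL, 119 ± 26.6 in SMJ and 129 ± 44.4 in DBA. That difference between strains passed at 0 h (F test, adjusted p = 0.0341), as it did for 26.1% of all genes. It was lost without SMJ56, DBA114 or any 1 of the 3 undosed C57 mice (adjusted p up to 0.124). The F test of the strains' changes at 6 h was not passed (adjusted p = 0.275).

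Nr4a1, the orphan receptor, differed between strains by 6 h. In SJL its signal was 181.9, 61.0 and 76.0 at 0 h, 154, 354 and 471 at 3 h, and 195, 105 and 175 at 6 h. In C57 it was 135, 105 and 127 at 0 h, 663, 764 and 687 at 3 h, and 2433, 4031 and 1825 at 6 h. Within SJL the mean was highest at 3 h, but the SJL 3 h mice overlapped both the undosed and the 6 h mice. The SJL 6 h mice also overlapped the undosed ones. In C57, by contrast, every mouse at 6 h was above every mouse at 3 h.

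In DBA the Nr4a1 signal was 56.8, 85.1 and 58.5 at 0 h, 765, 1863 and 2444 at 3 h, and 417, 770.0 and 1075 at 6 h. In SMJ it was 354, 105 and 83.4 at 0 h, 501, 634 and 726 at 3 h, and 625, 431 and 658 at 6 h. The 3 h and 6 h mice overlapped in both strains, and all were above the undosed mice. At 6 h against 0 h Nr4a1 rose by 4.39 ± 0.49 in C57, 3.36 ± 0.49 in DBA and 1.92 ± 0.49 in SMJ, and did not pass in SJL at 0.68 ± 0.49 (adjusted p = 0.492). The F test for a difference between strains passed (adjusted p = 0.00689) and held with any 1 array left out (adjusted p at most 0.0214) and under each alternative processing run. The SMJ call ended without SMJ58 (adjusted p = 0.0554).

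The direct comparison of the Nr4a1 change in SJL with the mean change of the other 3 strains gave -2.55 ± 0.57 at 6 h (95% interval -3.72 to -1.38, adjusted p = 0.0461). It was the only 1 of the 9 genes to pass there, where 0.0787% of all genes were lower and 0.393% passed in either direction. The size stayed between -2.85 and -2.09 with any 1 array left out, but the call ended without any 1 of 25 of the 36 arrays, SJL45 giving the highest adjusted p, 0.179, and with no filter (0.0673) or the compared arrays alone (0.0679). At 3 h the difference was -1.39 ± 0.57 and did not pass (adjusted p = 0.174). The 3 h call of Nr4a1 in SJL, 1.61 ± 0.49, ended without SJL2, SJL4, SJL40 or SJL42 (adjusted p up to 0.163).

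From 3 h to 6 h Nr4a1 changed by -0.94 ± 0.49 in SJL, 1.89 ± 0.49 in C57, -1.11 ± 0.49 in DBA and -0.13 ± 0.49 in SMJ, and only the C57 rise passed (adjusted p = 0.0264). The strains differed in this step by the F test (adjusted p = 0.0215), a call lost without C57226, C57231 or C57236 (adjusted p up to 0.0791). The C57 rise itself was lost without any 1 of C57226, C57230, C57231, C57233 and C57236 (adjusted p up to 0.155) and on the compared arrays alone (0.0758).

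Nr4a2, the close relative of Nr4a1, read 28.9 to 96.6 at 0 h, 36.4 to 97.97 at 3 h and 10.5 to 106 at 6 h. Its times overlapped within each strain, except that C57 mice at 3 h were above those at 0 h, and none of its tests between times passed with its main probe set. With the mean of its 6 probe sets it passed in C57 at 6 h (0.86, adjusted p = 0.0111), in the F test of strain differences at 6 h (adjusted p = 0.0145) and in SJL against the other strains at 3 h (-0.90, adjusted p = 0.0384). Its 6 h change was -0.92 ± 0.47 in SJL, 0.57 ± 0.47 in C57, -0.07 ± 0.47 in DBA and -0.78 ± 0.47 in SMJ. Its 5 other probe sets gave mean changes between 0.12 and 0.46 at 6 h and none passed. The interval of its main value at 6 h was -0.78 to 0.19. Nr4a3, the remaining member of the family, was not tested through its main probe set, which was below the filter level in every array. Another Nr4a3 probe set, above that level in 7 arrays, changed by 1.49 ± 0.33 at 6 h (adjusted p = 0.00158 over all probe sets), and within strains it passed in SMJ alone, at 2.27 (adjusted p = 0.0277).

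Srf, the transcription factor at the end of the ERK and actin routes, changed least among the genes that rose. In SMJ its signal was 136, 136 and 145 at 0 h, 202, 189 and 158.4 at 3 h, and 299, 295 and 277 at 6 h. In SJL it was 189, 274 and 199 at 0 h, 221, 306 and 269 at 3 h, and 252, 222 and 178 at 6 h. The SMJ mice separated at each time, while the SJL times overlapped.

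In DBA the Srf signal was 223, 159.9 and 203 at 0 h, 235.6, 193 and 263 at 3 h, and 283, 224 and 227 at 6 h. In C57 it was 184, 147 and 189 at 0 h, 264, 245 and 229 at 3 h, and 197, 285 and 279.9 at 6 h. At 6 h against 0 h the change was 1.04 ± 0.17 in SMJ (adjusted p = 8.95e-05), 0.53 ± 0.17 in C57 (adjusted p = 0.0482), 0.33 ± 0.17 in DBA and -0.02 ± 0.17 in SJL, and the last 2 did not pass (adjusted p = 0.242 and 0.972). Leaving out 1 array ended the C57 call in 23 cases, the highest adjusted p being 0.194 when C57181 was the one. The call was also lost with no filter on low values (adjusted p = 0.0706), with scaling to the 75th percentile (0.0512) and on the compared arrays alone (0.222). The F test for strain differences in the change passed (adjusted p = 0.0404) and was lost in 15 such cases (highest adjusted p 0.0852, for SJL2), with no filter (0.0635) and on the compared arrays alone (0.0674). Undosed Srf also differed between strains, with 221 ± 46.1 in SJL, 173 ± 22.8 in C57, 195 ± 32.2 in DBA and 139 ± 5.21 in SMJ (SD, n = 3 each; F test, adjusted p = 0.0348), and that call was lost without SJL2, SMJ56, SMJ57, SMJ58 or DBA115 (adjusted p up to 0.107).

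The second Srf probe set, whose name marks it as able to bind other transcripts, gave another value for SJL. Its SJL mice read 76.9, 54.5 and 45.9 at 0 h, 93.4, 122 and 120.4 at 3 h, and 167, 129 and 113.4 at 6 h, with the 3 h and 6 h mice above the undosed ones. It changed at 6 h by 1.18 ± 0.33 in SJL, 1.48 ± 0.33 in C57, 0.95 ± 0.33 in DBA and 0.94 ± 0.33 in SMJ, and by 1.14 ± 0.17 as the mean of strains (adjusted p = 1.34e-05 over all probe sets). With the mean of both probe sets the strain difference of Srf was lost (F test, adjusted p = 0.592). Both probe sets rose as the mean of strains. In SJL neither passed (adjusted p = 0.0526 for the second), and the sizes were -0.02 and 1.18.

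**Figure D3:**
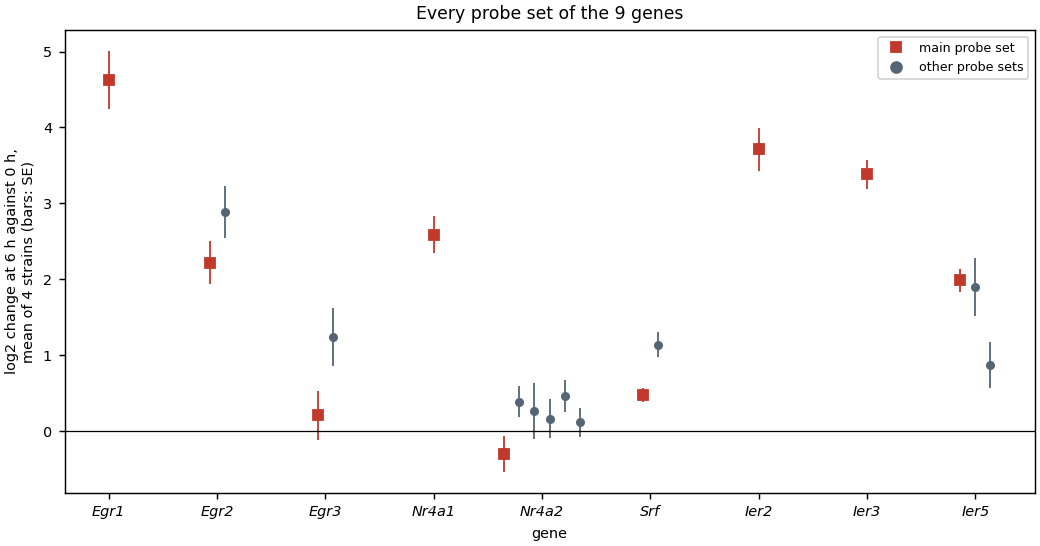
Change at 6 h against 0 h, as the mean of the 4 strains, for each of the 19 probe sets of the 9 genes, in log2 units with SE; squares are main probe sets and circles the others. The 6 probe sets of Nr4a2 lay between -0.30 and 0.46, and both Srf probe sets lay above 0.

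Of the 10 other probe sets, 5 were higher at 6 h and none was lower. They were those of Egr2, Egr3 and Srf and the 2 of Ier5, which gave 1.90 and 0.87 beside 1.98 for its main probe set. The Ier5 probe set with 0.87, like that of Egr3, exceeded the filter level on 1 array, and its mean signal was 13.4. The share of all probe sets that were higher is not given here. Egr1, Ier2, Ier3 and Nr4a1 had 1 probe set each, so no second measurement of them was at hand.

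Set against the other 3 strains, SJL differed by the test in Nr4a1 at 6 h against 0 h and in Ier3 at 6 h against 3 h. Of the 9 genes none passed at 3 h against 0 h, where 4.61% of all genes did, and 1 had an unadjusted p under 0.05 in limma's fit. Without SJL42, 1 gene passed there and 2 passed at 6 h against 3 h. For 6 h against 0 h, 4 of the 9 had an unadjusted p under 0.05 in limma's fit: Ier3, Ier5, Nr4a1 and Srf. The shares of all genes at that unadjusted level are not given here for any time. The intervals for Egr1, Ier2 and Ier5 were wide. For Egr1 the SJL change at 6 h minus the mean of the others was 1.53 (-0.26 to 3.32), for Ier2 0.10 (-1.22 to 1.43) and for Ier5 0.93 (0.20 to 1.66), so a difference of 2-fold in either direction for Ier2, or of more than that in favour of SJL for Egr1 and Ier5, lay inside them. For Ier3 the value was -1.58 (-2.49 to -0.67, adjusted p = 0.118), and it passed without SJL48 (-2.12, adjusted p = 0.0156) or SMJ56 (-1.74, adjusted p = 0.0414). For the main probe set of Srf the value was -0.65 (-1.06 to -0.24), and it did not pass in limma's fit (adjusted p = 0.146). The summed neutrophil markers averaged 1255 in SJL, 1059.8 in C57, 820.4 in DBA and 1613 in SMJ at 6 h, and 1839.9, 637, 198.3 and 567 in these strains at 3 h (n = 3 each), and their part in these differences was not tested. Before the dose none of the 9 differed between SJL and the others, against 12.1% of all genes, and 2 had an unadjusted p under 0.05. Without SJL39 or SMJ57, 1 passed. Undosed Egr1 was 215 ± 60.6 in SJL, and 2201 ± 3138, 469.7 ± 420.0 and 811 ± 423 in SMJ, DBA and C57 (difference -1.59 ± 0.62, adjusted p = 0.0944).

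Across all 4 strains, the F test found a difference in the change at 6 h against 0 h for 3 of the 9 genes (Nr4a1, Ier3 and Srf), against 5.25% of all genes, and for 1 of them without SJL45, SMJ57, SMJ58 or SMJ101. For 6 h against 3 h it found 2 (Ier3 and Nr4a1), against 5.64%, and 1 without C57226, C57231 or C57236. For 3 h against 0 h it found none, against 1.97%. At an unadjusted p under 0.05 in limma's fit there was 1 gene, Nr4a1 (adjusted p = 0.0726). The share of all genes at that unadjusted level is not given here. Without SJL42 the count past the adjusted threshold at 3 h was 2, and without SMJ56 or DBA158 it was 1. Before the dose 2 genes differed (Ier5 and Srf), against 26.1%, and without SMJ56 none did, while 1 did without SJL2, SMJ58, DBA115 or any 1 undosed C57 mouse.

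The 9 genes varied together to different degrees. Over the 36 arrays the log2 signals of Egr1 and Ier2 had a Pearson r of 0.95, and once each group's mean was removed it was 0.83. For Egr1 with Ier3 the values were 0.81 and 0.33, for Egr1 with Nr4a1 0.77 and 0.63, and for Ier2 with Ier3 0.78 and -0.02. Over all 36 pairs r ran from -0.38 to 0.95 with a median of 0.40, and within groups from -0.44 to 0.83 with a median of 0.09. These values describe arrays that share strain, time and hybridisation, and carry no test. The SJL mice at 3 h show the split: Egr1, Ier2, Ier5, Nr4a1 and Egr2 were highest in SJL42, while Ier3 was lowest there, at 155 against 297 and 370.5.

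**Figure D4:**
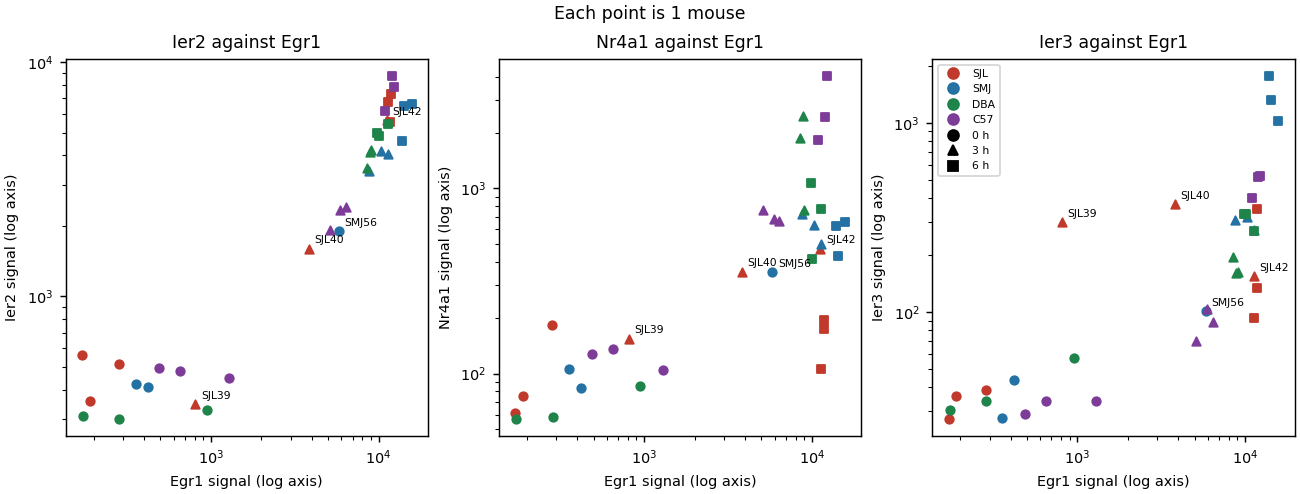
Ier2, Nr4a1 and Ier3 signal against Egr1 signal in each of 36 mice, on log axes, coloured by strain with symbols for hours after the dose; 4 mice named in the text are labelled. Ier2 followed Egr1 along 1 band, whereas Nr4a1 and Ier3 spread over a wide range among mice with high Egr1.

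Outside the 9, the genes whose log2 signal was most like each of them over the 36 arrays were as follows. For Egr1 they were Jun (r = 0.96), Fos (0.95) and Zfp36 (0.94), and for Ier2 Fos (0.98), Jun (0.97) and Zfp36 (0.95), where Jun and Fos encode the AP-1 factor and Zfp36 an RNA-binding protein that shortens the life of messages. For Egr2 they were Jun (0.83), Btbd19 (0.83) and Fos (0.82). Ier3 had Fosl2 (0.90), Ets2 (0.89) and Junb (0.88), Ier5 had Sertad1 (0.90), Brd2 (0.90) and Chka (0.89), and Nr4a1 had Btg2 (0.85), Ccnl1 (0.83) and Jdp2 (0.81). For Egr3 the best was Prrg1 (0.58), for Nr4a2 Aqp3 (0.65) and for Srf Rps3a1 (0.71).

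Genes tied to the 9 by pathway were read from 13 lists of 99 genes, and counts in them stand beside the 12.5% of all genes that rose and 20.1% that fell at 6 h as the mean of strains. At 3 h these shares were 3.1% and 3.96%. Of 16 other immediate early genes, 14 rose at 3 h and 16 at 6 h as the mean of strains, with medians of 2.01 and 3.00. The largest 6 h changes were those of the stress factor Atf3 at 6.12 ± 0.30, Fos at 6.03 ± 0.47 and the small MAF factor Maff at 4.74 ± 0.18. The F test found a strain difference at 6 h for 3 of the 16, Btg2, Klf2 and Maff, against 5.25% of all genes. Btg2, an antiproliferative gene that stood nearest to Nr4a1 over the arrays, changed by 2.27 ± 0.35 in SJL, 3.56 ± 0.35 in C57, 5.12 ± 0.35 in DBA and 3.41 ± 0.35 in SMJ. Before the dose 9 of the 16 already differed between strains by the F test, Btg2 and Maff among them, against 26.1% of all genes. Inhibitors that ERK signalling itself induces rose as well. Of 8 listed, 4 rose at 3 h and 7 at 6 h (median 1.02), led by the ERK phosphatases Dusp5 at 3.62 ± 0.23, Dusp6 at 2.40 ± 0.15 and Dusp4 at 1.74 ± 0.20. Of the ERK cascade itself 5 of 11 listed genes were tested and 1 rose at 6 h, the ERK-dependent kinase Rps6ka3 at 0.44 ± 0.07. The other 6 were not analysed here.

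Upstream, 3 of 6 tested genes of the EGF receptor family and its ligands rose at 6 h and 1 fell. Those that rose were the ligands Hbegf at 1.46 ± 0.19, Btc at 1.36 ± 0.19 and Ereg at 1.33 ± 0.33, of which none had passed at 3 h. The receptor Erbb3 fell by 1.22 ± 0.10 at 6 h. Of 5 cofactors of serum response factor, Mrtfa rose at 6 h (0.75 ± 0.13), and Elk3 (-0.79 ± 0.11) and Elk4 (-0.28 ± 0.08) were lower.

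Of 10 cytoskeletal targets of serum response factor and MRTF, 3 rose at 3 h and 9 at 6 h (median 0.64). Actg1, a cytoplasmic actin, led at 2.18 ± 0.14, with the tropomyosin Tpm4 at 1.23 ± 0.10 and the myosin Myh9 at 0.76 ± 0.09. Within strains 3 of the 10 rose at 6 h in SJL, 3 in C57, 4 in DBA and 8 in SMJ. Of all genes 3.71%, 4.24%, 4.81% and 8.58% rose in these strains. The change differed between strains for 4 of the 10, Actb, Myh9, Tagln2 and Tpm4, by the F test at 6 h, against 5.25% of all genes. Before the dose 2 of the 10, Actb and Tpm4, already differed between strains by the F test, against 26.1% of all genes.

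Heat shock genes, which the Ier5 partner HSF1 drives, rose and differed between strains. All 7 tested rose at 6 h as the mean of strains (median 0.97), led by the chaperones Hspa1a at 4.33 ± 0.45, Dnajb1 at 3.26 ± 0.22 and Hspa1b at 1.69 ± 0.30. The strain counts were 7 of 7 for SJL, 1 for C57, 4 for DBA and 5 for SMJ, and the medians 2.84, -0.26, 0.77 and 1.89. Of all genes 3.71%, 4.24%, 4.81% and 8.58% rose in these strains. The F test for a strain difference at 6 h was passed by 6 of the 7, against 5.25% of all genes. Dnajb1 changed by 4.66 ± 0.44 in SJL, 1.41 ± 0.44 in C57, 3.67 ± 0.44 in DBA and 3.31 ± 0.44 in SMJ (F test, adjusted p = 0.0107). Before the dose all 7 already differed between strains by the F test, as 26.1% of all genes did. The change of Ier5 itself was 2.68 in SJL and 1.52 in C57, and its F test at 6 h was not passed (adjusted p = 0.275).

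In the remaining lists fewer genes passed, and with 5 to 8 tested genes a list the counts lie near those shares for the glucose, Egr1-linked and CREB lists. Of 5 tested glucose production genes linked to Nr4a receptors, only Fbp1 rose at 6 h, an enzyme late in that pathway (0.20 ± 0.06). Of 5 tested injury genes linked to Egr1, only Cd44, a cell adhesion receptor, rose (0.62 ± 0.12). The Egr corepressors Nab1 and Nab2 did not pass as a mean of strains, at -0.02 ± 0.06 and 0.35 ± 0.15. Of 8 genes of the CREB pathway 2 rose and 2 fell, with the clock gene Per1 at 1.15 ± 0.27, the coactivator Ppargc1a at -0.49 ± 0.15 and Creb1 at -0.45 ± 0.09. Of 6 feedback genes of NF-kB 3 rose, Nfkbiz at 3.17 ± 0.17, Tnfaip3 at 1.17 ± 0.32 and Nfkbia at 0.24 ± 0.09. Of the 2 tested family relatives Ier5l rose by 0.49 ± 0.16.

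**Figure D5:**
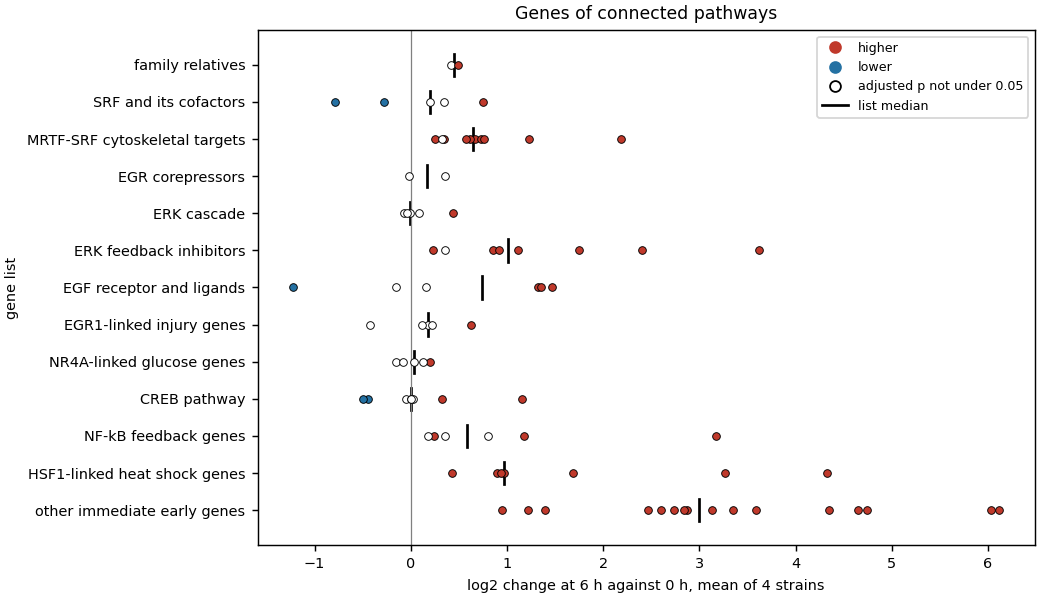
Change at 6 h against 0 h, as the mean of the 4 strains in log2 units, of each tested gene in 13 lists; red points rose, blue points fell, open points did not pass and black bars are list medians. The other immediate early genes all lay at or above 0.94, and the median over all genes tested was -0.05.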

How the data were processed

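Gene expression in the livers of 36 mice was measured on Affymetrix arrays. The authors deposited 1 signal intensity per probe set and array, made with the MAS5 algorithm per the submitters' processing notes, and the version is not given in the sources used here. The deposited intensities were taken as already scaled: the mean after trimming 2% from each end, averaged over the 36 arrays, was 150.0. No probe-level data were used, so the summary and background steps could not be changed here, and the depth of an array has no counterpart to read totals.

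Of 45101 probe sets, 64 controls, 932 with several symbols and 9160 with none were left out, which left 34945 for 18193 genes. Each gene was read from the probe set with the highest mean log2 signal, passing over those named _x_at or _s_at where another existed. Signals were transformed as log2(signal + 2.77), where 2.77 is their 10th percentile. A gene was tested if its signal exceeded the median of all values, 30.8, on at least 3 arrays.

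Changes were fitted with limma 3.58.1 in R 4.3.3 over 12 strain-by-time groups of 3 mice, with 24 residual degrees of freedom, and p-values were adjusted over all 13981 genes tested. They measure the spread between these mice. The 3 h and 6 h comparisons share the 0 h mice. Strains were compared by F tests and by SJL against the mean of the other 3. The fit was tested on simulated data.

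Alternatives changed the offset, the filter, the scaling, the probe set rule, the variance model and the arrays in the fit, and left out each array in turn. The genes and gene lists were chosen with earlier results of these data known. From each list up to 3 genes with the largest called change at 6 h were named, and for each of the 9 genes up to 3 most correlated genes. Other genes named from the lists were chosen after their values were seen. Of the 99 list genes, those without a tested probe set were not used here.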

Additional observations from a re-analysis of the deposited data

Results flagged for a closer look

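Nr4a1 and Ier3 changed by different amounts in the 4 strains. For 6 h against 0 h the F test of a difference between strains gave an adjusted p of 0.00689 for Nr4a1, with changes of 0.68 in SJL, 4.39 in C57, 3.36 in DBA and 1.92 in SMJ. The SJL change minus the mean change of the other 3 strains was -2.55 (limma's adjusted p = 0.0461). That second call ended in most runs that left out a single array, with no filter and on the compared arrays alone. The F test call of Nr4a1 held in those runs.

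Ier3 gave an adjusted p of 0.0242 in the same F test. For 6 h against 3 h its adjusted p was 0.00234, and the SJL change minus the mean of the others was -2.44. The adjusted p of Nr4a1 for 6 h against 3 h was 0.0215.

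With its main probe set Srf passed the F test for 6 h against 0 h at an adjusted p of 0.0404. The changes were -0.02 in SJL, 0.53 in C57, 0.33 in DBA and 1.04 in SMJ. That call was lost with the mean of both Srf probe sets, with no filter on low values and on the compared arrays alone. It was also lost in some of the runs that left out a single array. Single outlying mice were not tested in groups of 3, and SMJ56 and SJL39 are described by their values alone.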

How the results depend on the processing

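Over the 4 strains' mean, 7 of the 9 genes rose at 3 h and at 6 h with any 1 array left out, and 4 to 5 rose from 3 h to 6 h. No change of direction was found in any alternative run among the called values. Counts of genes within strains and between strains moved more, and the shares of all genes in the alternative runs are not given here. With any 1 array left out, the count at 3 h against 0 h ranged from 2 to 5 for SJL (4 with all arrays), 0 to 3 for C57 (1), 4 to 5 for DBA (5) and 1 to 4 for SMJ (1). At 6 h against 0 h it was 5 for SJL throughout, 5 to 6 for C57, 5 to 6 for DBA and 6 to 7 for SMJ. At 6 h against 3 h it ranged from 0 to 4 for SJL (2), 1 to 3 for C57 (2), 0 to 1 for DBA (1) and 2 to 3 for SMJ (3). For SJL against the other strains it ranged from 0 to 1 at 3 h (0), 0 to 2 at 6 h (1), 1 to 2 for 6 h against 3 h (1) and 0 to 1 at 0 h (0). For the F tests it ranged from 0 to 2 at 3 h (0), 1 to 3 at 6 h (3), 1 to 3 for 6 h against 3 h (2) and 0 to 3 before the dose (2).

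An offset of 16 gave 3 genes in SMJ at 3 h. With no filter on low values the counts were 4 in DBA at 3 h, 5 in C57 at 6 h, 2 for the F test at 6 h, 0 for SJL against the others at 6 h, 1 for SJL and 0 for DBA at 6 h against 3 h, and 1 for the F test before the dose. Quantile normalization gave 1 for SJL at 6 h against 3 h and 1 for the F test before the dose. The mean of all probe sets gave 2 in C57 at 3 h, 1 for SJL against the others at 3 h, 1 for SJL and 0 for DBA at 6 h against 3 h, and 0 for the F test before the dose. At 6 h against 0 h it gave 8 as the mean of strains (Egr3 added), 8 in C57 (Egr2 and Nr4a2 added) and 7 in DBA (Srf added), and in the F test Nr4a2 took the place of Srf. A spread with a trend on mean level gave 4 in SMJ at 3 h and 1 for the F test at 3 h. When each comparison was fitted on its own arrays alone, which leaves fewer samples, the counts were 0 in SJL, 2 in C57, 3 in DBA and 0 in SMJ at 3 h, 4 in SJL, 5 in C57, 4 in DBA and 5 in SMJ at 6 h, 0 for SJL against the others at 6 h, 0 for SJL and 0 for DBA at 6 h against 3 h, and 1 for each of the F tests at 6 h and before the dose. The causes of the other shifts were not tested. Scaling left the median change of all genes at 6 h at -0.04 with quantile normalization and -0.00440 with the 75th percentile, beside -0.05. The mean change of Egr2 at 6 h was 2.36 with an offset of 1 and 1.59 with 16, and it passed with both. No paired analysis was possible because each mouse has its own number and the groups share no numbers.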
